A study of Homo sapiens with 6 samples.

Results

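Toll-like receptors are membrane proteins that bind microbial products. TLR2 pairs with TLR1 or TLR6 to bind bacterial lipopeptides, TLR4 binds lipopolysaccharide with the help of LY96 (MD-2) and CD14, TLR5 binds flagellin, and TLR7 and TLR8 bind single-stranded RNA in endosomes. All of them signal through the adaptor MYD88, which recruits IRAK kinases and leads to NF-kappaB activation. Neutrophils and monocytes use these receptors to sense infection. The 10 genes described here are those receptors, the coreceptors CD14 and LY96, and MYD88. They were taken by name, with every probe set of the array that the platform annotation gives to one of them alone, which made 16 of the 41091 probe sets with a single gene.

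The cells were NB4, an established human acute promyelocytic leukaemia line with the PML-RARA fusion, which matures toward neutrophils under all-trans retinoic acid (ATRA). The groups were untreated NB4 cells (0 h) and NB4 cells kept in 1e-06 M ATRA for 4, 12, 24, 48 or 72 h, all of the same line. Each time is 1 Affymetrix array, 6 in all, so time in ATRA and time in culture cannot be told apart and a difference between single arrays has no replicate check. Where 6 values are given in time order, they are those of the arrays at 0, 4, 12, 24, 48 and 72 h. Values are log2 probe set summaries deposited by the authors, and the arrays' medians lay between 3.64 and 3.69. A gene was taken as measurable when its probe set with the highest mean reached 3.66, the median of all values, on at least 1 array. This kept 13594 genes, and 6 of the 10 members: TLR1, TLR2, TLR4, TLR6, LY96 and MYD88. TLR5, TLR7, TLR8 and CD14 stayed below that level on all 6 arrays.

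As a check of the cells, the neutrophil markers S100A8 and ITGAM were higher at 72 h by 9.24 and 4.07 on the log2 scale, and of the 4 promyelocyte genes kept, MPO fell by 1.98 and CTSG fell by 2.42, while AZU1 (a difference of -0.27) and PRTN3 (0.31) were not called. The spiked control bioC averaged 8.01 and 8.11 on the 0 and 12 h arrays and between 6.88 and 7.17 on the others. The other spiked controls, bioB, bioD and cre, went the other way, with lower averages on the 0 and 12 h arrays. From 0 to 4 h bioB went from 6.54 to 7.11, bioD from 10.10 to 10.36 and cre from 11.95 to 12.26. A 28S ribosomal RNA control read 10.3 at 12 h and 9.51 and 9.63 at 48 and 72 h, against 6.77 untreated. An 18S control read 9.98 at 12 h, against 6.06 untreated. Trends with the bioC level as a covariate are given below, and the part of the ribosomal controls in the results was not tested.

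Promoters are shown for MYD88, the member with the clearest rise, for TLR4, whose promoter held repeated matches to 1 motif, and for TLR3, a related receptor that also rose. TLR3 is not a member, and no other gene outside the members had its matches listed. They are RefSeq sequences of GRCh38.p14, from 250 bases before to 50 after the annotated start, and 7 of the 10 members had an entry. Capitals mark matches on either strand to the interferon-stimulated response element core (GAAANNGAAA) or to the site of the myeloid ETS factor PU.1 (GAGGAAGT).
MYD88 (chr3:38138411-38138710, plus strand): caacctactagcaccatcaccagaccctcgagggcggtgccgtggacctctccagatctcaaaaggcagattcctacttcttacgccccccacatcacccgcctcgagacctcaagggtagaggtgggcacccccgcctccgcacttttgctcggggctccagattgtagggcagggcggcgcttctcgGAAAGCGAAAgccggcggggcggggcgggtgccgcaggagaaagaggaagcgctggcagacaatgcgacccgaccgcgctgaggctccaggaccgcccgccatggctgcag
TLR3 (chr4:186068906-186069205, plus strand): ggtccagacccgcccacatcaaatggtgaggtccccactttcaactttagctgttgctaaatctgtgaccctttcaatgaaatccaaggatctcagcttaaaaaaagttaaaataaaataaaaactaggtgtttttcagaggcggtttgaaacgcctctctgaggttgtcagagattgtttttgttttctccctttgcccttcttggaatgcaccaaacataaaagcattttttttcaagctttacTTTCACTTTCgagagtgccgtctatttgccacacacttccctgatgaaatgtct
TLR4 (chr9:117704153-117704452, plus strand): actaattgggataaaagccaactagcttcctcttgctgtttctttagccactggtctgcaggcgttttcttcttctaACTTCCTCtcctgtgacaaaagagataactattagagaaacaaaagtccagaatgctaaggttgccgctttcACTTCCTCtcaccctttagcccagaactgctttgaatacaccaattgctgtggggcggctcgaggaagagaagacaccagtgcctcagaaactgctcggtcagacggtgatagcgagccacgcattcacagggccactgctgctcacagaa

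The MYD88 promoter held GAAAGCGAAA, from -61 to -52 relative to the start, and the TLR3 promoter held the core on the minus strand, across the start. Of the 35116 promoters in the table, 3.57% hold this core. The TLR4 promoter held the PU.1 letters at 2 places on the minus strand, from -173 to -166 and from -101 to -94, and 2.59% of all promoters hold them. The promoters of CD14, TLR2, TLR5, TLR6 and TLR8 held neither the core nor the PU.1 letters. Any part of these letters in the rises was not tested. The NF-kappaB consensus, found in 11.3% of promoters, and the retinoic acid receptor hexamer AGGTCA, found in 13.8%, had no match in the 7 member promoters searched, those of CD14, MYD88, TLR2, TLR4, TLR5, TLR6 and TLR8. The direct repeats DR1 (AGGTCANAGGTCA), DR2 (AGGTCANNAGGTCA) and DR5 (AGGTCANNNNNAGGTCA) contain that hexamer and had none either. A match is a run of letters in this window and was not set against any binding data.

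MYD88, the shared adaptor, was well above the filter on every array and was higher at each later time. Its probe set read 7.70, 7.86, 8.10, 8.41, 10.1 and 11.5 in time order. The untreated array was the lowest and the 72 h array the highest, and the largest step lay between 24 and 48 h (1.71 on the log2 scale). At 72 h MYD88 was 14.2-fold higher than untreated. A trend over the order of the times (steps 0 to 5, 1 per array) was fitted with limma, and MYD88 rose by 0.75 ± 0.12 on the log2 scale at each step (SE, adjusted p = 0.00783). The call held with each array left out in turn and with the bioC level as a covariate, and ended within the 4, 24, 48 and 72 h arrays alone (limma adjusted p = 0.0581).

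TLR1, the partner of TLR2 for triacylated lipopeptides, was below the filter until 24 h and high at 72 h. Its probe set read 3.003, 2.83, 2.93, 3.18, 4.61 and 7.84 in time order. The first 4 arrays lay below 3.66 and the last 2 above it. With the low end set to 3.66, the 72 h level was at least 18.2-fold higher than untreated and 9.39-fold higher than at 48 h. TLR1 rose by 0.85 ± 0.22 per step (limma adjusted p = 0.0333). The call was lost without the 72 h array (slope 0.36, limma adjusted p = 0.13), without the 4 h array (limma adjusted p = 0.0795) or the 12 h array (limma adjusted p = 0.0635), with the bioC covariate (limma adjusted p = 0.079), within the 4, 24, 48 and 72 h arrays (limma adjusted p = 0.101) and with values below the filter set to it (limma adjusted p = 0.0936).

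TLR6, which pairs with TLR2 for diacylated lipopeptides, differed less than TLR1. Its representative probe set, the one with the highest mean, read 3.74, 4.200, 4.00, 4.12, 4.21 and 5.32 in time order, so the 72 h array stood above the other 5. At 72 h it was 2.98-fold higher than untreated, and its slope of 0.23 ± 0.07 per step was not called (limma adjusted p = 0.0628), though it was without the 48 h array (limma adjusted p = 0.0444). Without the 72 h array the slope was 0.08. It was not called then, nor with any other single array left out or with the bioC covariate. The other probe set went from 3.48 untreated to 4.24 at 72 h, a difference of 0.76, and was called when each probe set was fitted by itself (slope 0.16 ± 0.04, limma adjusted p = 0.0374). The mean of both sets was called too (slope 0.20, limma adjusted p = 0.0203). The genes of TLR10, TLR1 and TLR6 lie next to each other on chromosome 4. At 72 h they differed from untreated by 0.64, 4.84 and 1.58.

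TLR2, the shared partner of TLR1 and TLR6, stayed close to the filter throughout. It read 3.65, 4.13, 4.01, 4.52, 3.89 and 3.81 in time order. Its highest array was that of 24 h, 0.87 above untreated, and its 72 h array was 0.16 above it. The slope was 0.02 ± 0.07 per step (limma adjusted p = 0.905), and the sign of this slope changes with the settings. The low signal leaves little room to see a smaller level than the untreated one.

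**Figure D1:**
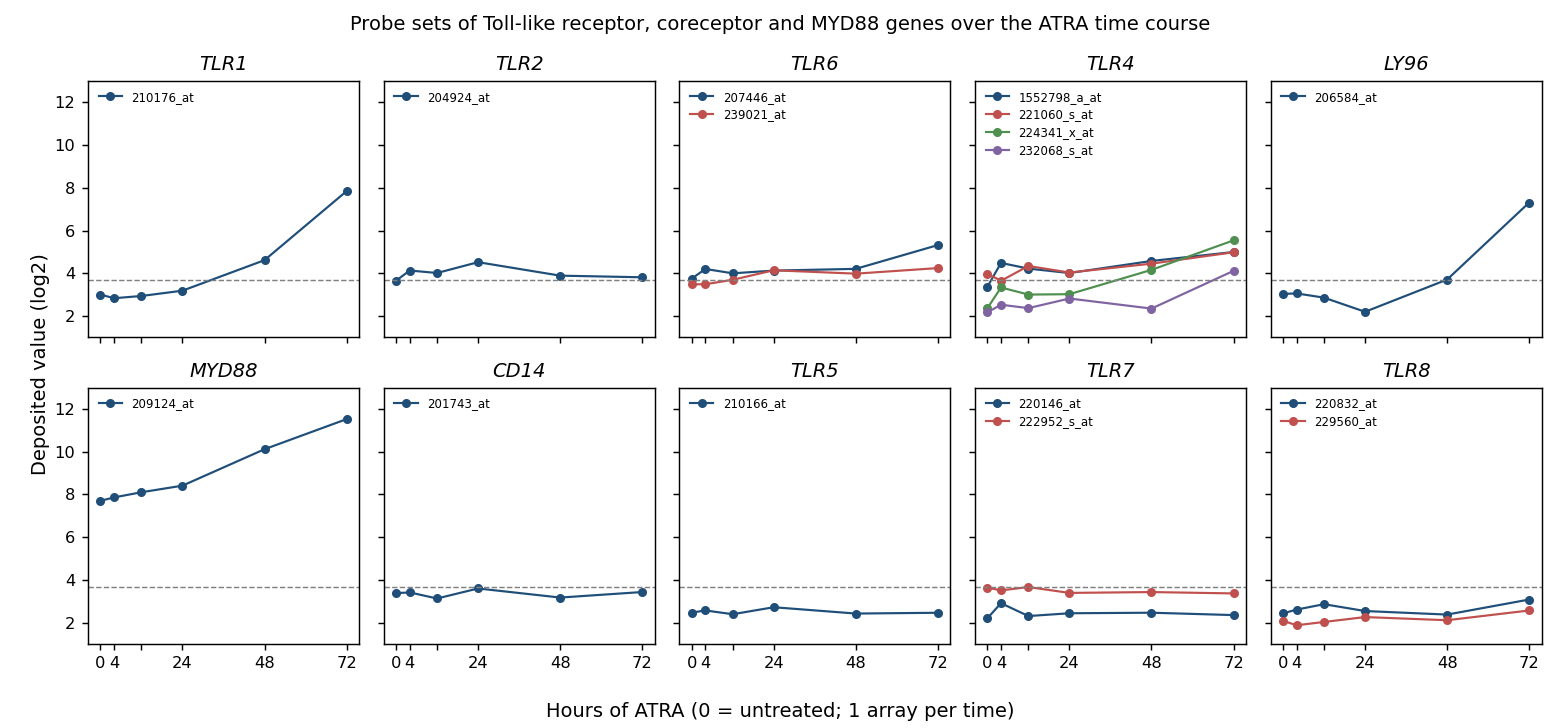
Deposited log2 value (vertical axis) against hours of ATRA (horizontal axis, 0 is untreated, the unlabelled tick is 12 h) for the 16 probe sets of the 10 genes, 1 array per time, with the filter at 3.66 as a dashed line. TLR1 reads 4.61 at 48 h and 7.84 at 72 h, LY96 stands clearly above the line at 72 h alone (7.31), MYD88 goes from 7.70 to 11.5, and CD14, TLR5, TLR7 and TLR8 stay below the line.

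TLR4, the lipopolysaccharide receptor, was read by 4 probe sets that were all higher at 72 h but differed in the time of the first difference. The representative set read 3.36, 4.48, 4.22, 4.01, 4.57 and 4.99 in time order. All 5 ATRA arrays lay above the untreated one, which was below the filter. The second set read 3.98, 3.65, 4.34, 4.03, 4.45 and 4.98 in time order, so its 4 h array was the lowest. The 2 other sets began further below the filter. The third, an x_at set, a class open to cross-hybridisation, went from 2.36 to 5.54, and the fourth from 2.17 to 4.11. At 72 h the 4 sets were higher than untreated by 1.64, 0.999, 3.18 and 1.94 in that order.

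With the untreated level set to the filter, TLR4 in the representative set was at least 2.52-fold higher at 72 h and at least 1.77-fold at 4 h. The slope of that set was 0.24 ± 0.07 per step and was not called (limma adjusted p = 0.0614). It was called without the 4 h array (0.30, limma adjusted p = 0.0199) and without the 24 h array (limma adjusted p = 0.0474). Without any other single array it was not called, and the slope was 0.14 without the untreated array and 0.20 without the 72 h array. Nor was it called with the bioC covariate (0.19) or within the 4, 24, 48 and 72 h arrays (0.12). The mean of all TLR4 probe sets was called (slope 0.31, limma adjusted p = 0.0206). Fitted by itself, the third set was called (0.53 ± 0.11, limma adjusted p = 0.0195) and the other 3 were not (limma adjusted p = 0.0572 to 0.104). In that fit, which took the 10 member probe sets that reached the filter, 4 rose, those of TLR1 and MYD88 and 1 each of TLR4 and TLR6, where 7.47% of all probe sets fitted did. The sets of TLR1 and TLR4 among them reached the filter at 48 and 72 h only. This count is therefore a description and cannot be set against that share as a test. Against the 4 h array instead of the untreated one, TLR4 differed by 0.09 at 48 h and 0.51 at 72 h, under 2-fold at both times.

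LY96, the protein that holds lipopolysaccharide on TLR4, had the latest change of the members. It read 3.03, 3.05, 2.86, 2.19, 3.70 and 7.31 in time order. Only the 72 h array stood clearly above the filter. The step from 48 to 72 h was 3.61 on the log2 scale. With the low end set to the filter, LY96 at 72 h was at least 12.6-fold higher than untreated. The slope of 0.65 ± 0.26 per step was not called (limma adjusted p = 0.129). With hours as the time scale, which gives the last array more weight, LY96 was called (limma adjusted p = 0.0183), as was TLR6 (limma adjusted p = 0.0188).

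CD14, the other lipopolysaccharide coreceptor and a common monocyte marker, read 3.37, 3.41, 3.12, 3.59, 3.17 and 3.43 in time order. The values moved within 0.47 with no array above the filter, while LY96 and TLR4 were higher at 72 h. TLR5, the flagellin receptor, stayed between 2.39 and 2.72. The endosomal receptor genes TLR7 and TLR8, neighbours on the X chromosome, were each read by 2 probe sets. Those of TLR7 lay between 2.19 and 2.90 and between 3.36 and 3.66, the latter just under the filter at its highest, and those of TLR8 between 2.37 and 3.08 and between 1.87 and 2.56. The highest TLR8 value in both sets was at 72 h, 0.65 and 0.48 above untreated. A difference in these 4 genes may go unseen at such signal, which does not show that they are absent.

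Counted over the genes, 5 members were 2-fold or more higher than untreated at 72 h (TLR1, TLR4, TLR6, LY96 and MYD88) and 0 were 2-fold lower. Over all genes kept, 10.9% were 2-fold higher at 72 h and 12.2% lower. TLR1 and LY96 passed the filter only through their late arrays, so the members' count is a description and cannot be set against that share as a test. At 48 h TLR1, TLR4 and MYD88 were 2-fold higher (all genes 5.83% higher, 4.49% lower), but with low values set to the filter TLR1 was 1.93-fold and TLR4 1.88-fold higher and MYD88 alone remained. At 24 h no member was (all genes 3.35% higher, 1.99% lower), nor at 12 h (2.3% higher, 1.93% lower). At 4 h TLR4 alone was (all genes 1.74% higher, 1.81% lower), and 0 members were lower at any of these times. The 4 h count became 0 with low values set to the filter. In the trend fit 2 members rose, TLR1 and MYD88, where limma called 8.33% of all genes rising, and 0 members fell, where it called 9.86% falling. Unadjusted, 5 of the 6 kept members had p under 0.05 in the limma fit, as had 32.7% of all genes.

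**Figure D2:**
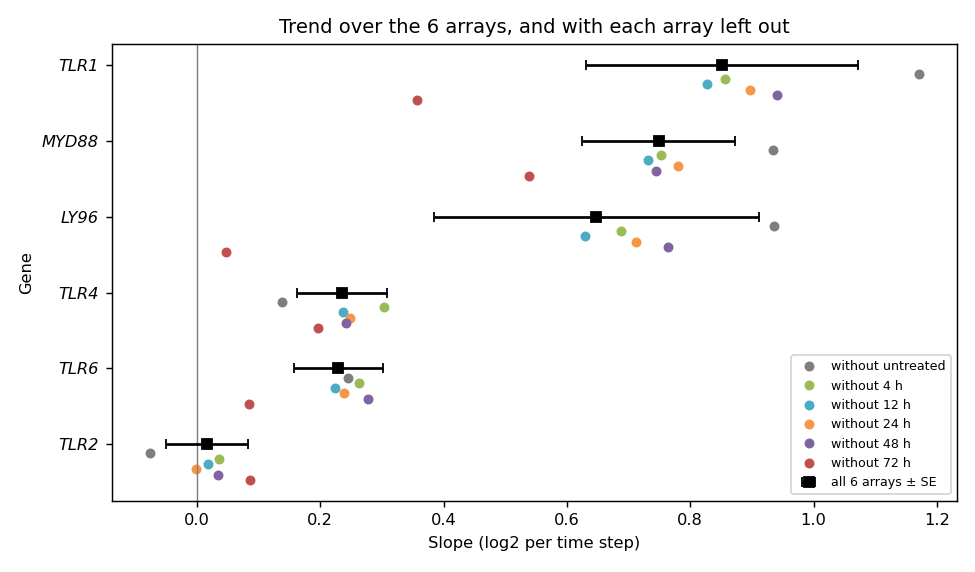
Slope of the 6 members kept by the filter (log2 per time step, horizontal axis), with all 6 arrays as black squares with SE bars and with each array left out as coloured points. The slope of LY96 goes from 0.65 to 0.05 without the 72 h array and that of TLR1 from 0.85 to 0.36, while MYD88 stays at 0.54 or above.

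How late the differences came varied among the members. The part of the 72 h difference that lay between 48 and 72 h was 70.6% for TLR6 and 36.9% for MYD88. For genes with an untreated value below the filter it depends on the low end: it was 84.3% as deposited and 98.9% with low values set to the filter for LY96, 66.8% and 77.3% for TLR1, and 25.7% and 31.5% for TLR4. The median over genes 2-fold higher at 72 h was 43.2% on either scale (1479 and 1416 genes). Between 48 and 72 h TLR1, TLR6, LY96 and MYD88 were 2-fold higher (all genes 4.74% higher, 2.14% lower). Between 24 and 48 h TLR1, LY96 and MYD88 were (all genes 1.74% higher, 0.559% lower), but with values below the filter set to it LY96 was 1.03-fold and TLR1 1.93-fold higher, and MYD88 alone stayed past 2-fold (3.26-fold).

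The genes most like each member were sought among kept genes that spanned at least 2 log2 units, by Pearson r over the 6 arrays, which all the genes share. MYD88 was most like CARD16 (r = 0.999), JAML (r = 0.999) and PAX3 (r = 0.999), which were higher at 72 h by 5.52, 4.65 and 2.60. TLR1 was most like SPTLC2, an enzyme of sphingolipid synthesis, H2BC5, a histone gene, and AQP9, a water and glycerol channel (r = 0.999 for each). LY96 was most like MILR1, STX11 and ST3GAL5 (r = 0.998, 0.994 and 0.992). TLR6 was most like RIT1, TMEM268 and the lysosomal phosphatase ACP2 (r = 0.989, 0.988 and 0.987), and TLR4 was most like RAB11FIP1, SNN and the autophagy receptor SQSTM1 (r = 0.985, 0.985 and 0.973). TLR2 had weaker likeness, with NDRG1, ZCCHC24 and INAVA (r = 0.783, 0.760 and 0.742). With 6 arrays such values are a description, and they carry no test.

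Of 55 other genes of the pathway, 49 were kept, 13 rose and 0 fell, and 20 were 2-fold higher and 2 lower at 72 h. Over all genes kept, 8.33% rose, 9.86% fell, 10.9% were 2-fold higher and 12.2% lower. Of the 49, 8 were below the filter when untreated, 3 of them among the rising genes (TLR3, PELI2 and CXCL10), and with low values set to the filter 19 were 2-fold higher. The list was chosen with results of these libraries known, so the counts are a description. Their median difference at 72 h was 0.83, against -0.06 over all genes kept. Among the other receptors TLR3, which binds double-stranded RNA and signals through TICAM1 instead of MYD88, rose by 0.81 ± 0.21 at each step (limma adjusted p = 0.036). It read 2.16, 2.88, 2.75, 2.72, 3.78 and 7.28 in time order, so it stood above the filter on the same arrays as TLR1. TLR9, the receptor of unmethylated DNA, read 3.80 untreated and 4.63 at 12 h, its highest, with no called slope, and TLR10 was higher by 0.64 at 72 h with no call.

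Of 7 accessory proteins and chaperones, UNC93B1, which carries endosomal receptors to their compartment, rose and was higher by 1.80 at 72 h. CD36, a scavenger receptor, and LY86, the partner of CD180, were at least 5.10- and 5.82-fold higher at 72 h without a call. Of the 3 measured TIR adaptors, TIRAP, which brings MYD88 to TLR2 and TLR4, rose from 4.87 to 6.52. TICAM1 (0.83 higher at 72 h) and SARM1 (0.39) were not called. Of 15 kinases and ubiquitin ligases, IRAK2 (2.26-fold higher at 72 h) and PELI2 (at least 1.52-fold) rose. The ubiquitin ligase PELI1 had the largest difference of the 15 (11.9-fold higher) and the kinase TBK1 was 2.29-fold higher, both without a call, while IRAK1 differed by 0.09 and TRAF6 by 0.27. Of 7 transcription factors, IRF7, which drives type I interferon genes downstream of TLR7 and TLR9, rose from 6.04 to 11.6 and REL from 6.26 to 8.29. NFKB2 was 2.14-fold higher at 72 h without a call.

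Of 7 inhibitors, SIGIRR, a receptor that damps IL-1 and Toll-like receptor signalling, rose and was 4.17-fold higher at 72 h, with most of that difference (1.46) already there at 4 h. NFKBIA was 3.33-fold higher at 72 h without a call. IRAK3, a kinase-like brake on the pathway, read 6.89 untreated, 5.23 at 4 h and 4.71 at 72 h, 4.54-fold lower, without a call (limma adjusted p = 0.0977), though IRAK3 was called falling without the 4 h array. Of 11 response genes, IL6, IL12B and PTGS2 stayed below the filter and CCL3 had no probe set of its own. Among the 7 kept, IL1B, CXCL8, CXCL10, CCL2 and CCL4 rose. TNF was 4.85-fold lower at 72 h and IFNB1, the interferon beta gene, at least 6.16-fold higher, both without a call, though TNF was called falling without the 4 h array. No microbial product is named in the labels. Without the 72 h array 6 of the 13 rising genes were called (IRAK2, SIGIRR, CXCL8, CXCL10, CCL2 and CCL4), and with the bioC covariate 6 (TIRAP, IRAK2, IRF7, CXCL8, CXCL10 and CCL4). Of the 6 fits that leave out 1 array, SIGIRR and UNC93B1 were called in 1 each, TLR3 and PELI2 in 2 each and REL in 3.

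**Figure D3:**
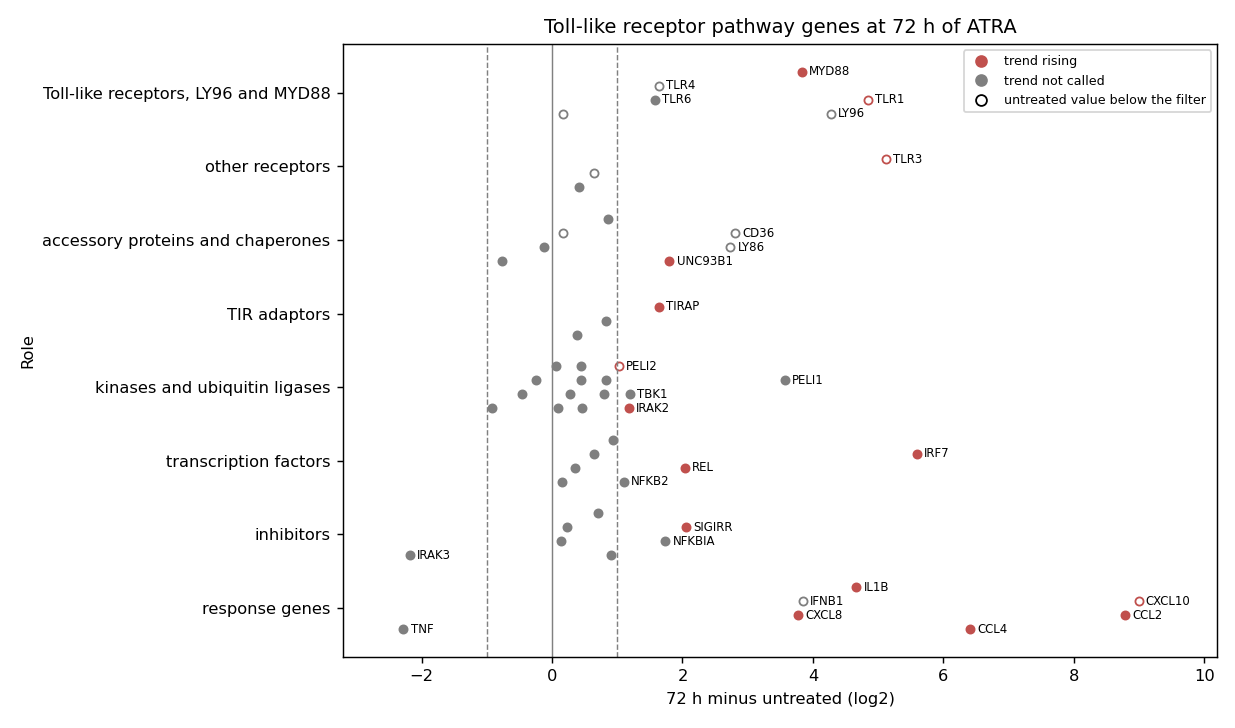
Difference between 72 h and untreated (log2, horizontal axis) for the 6 members kept and 49 other pathway genes by role (vertical axis). Red points have a called rising trend, grey points none, open points had an untreated value below the filter, and dashed lines mark 2-fold. CXCL10 lies farthest to the right at 8.99, and IRAK3 and TNF lie below the lower line.

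Markers of other cell types were followed beside the members. Of 12 monocyte and macrophage markers other than CD14, 11 had a probe set of their own and 5 reached the filter. The summed linear level of all 11, with those below the filter included, was 192 untreated, between 206 and 239 from 4 to 48 h and 345 at 72 h. Of the 5 that reached the filter, CX3CR1 rose (2.87 higher at 72 h). CD163, CSF1R and MARCO were higher at 72 h by 1.54, 1.31 and 0.53 without a call, and FCN1 differed by -0.39 without a call. C1QA, C1QB, LGMN, MRC1, MSR1 and VCAN did not reach the filter. Of 5 plasmacytoid dendritic cell markers 3 reached the filter, and the sum of all 5 was 63.5 untreated and 97.5 at 72 h. IL3RA was 2.05-fold higher at 72 h, SPIB differed by 0.57 and LILRA4 by -0.06, all without a call. SPIB was highest at 4 h (5.32, against 3.95 untreated). TCF4 and CLEC4C did not reach the filter, with CLEC4C at 2.89 or below. Of 4 B cell markers 2 reached the filter, of which CD79A rose (1.46 higher at 72 h) and CD79B fell (a difference of -1.39). All 5 T and NK cell markers reached it, and GNLY alone was called, rising (0.97 higher at 72 h). GNLY was below the filter when untreated, and with low values set to the filter it was at least 1.38-fold higher at 72 h. NKG7 (a difference of 0.75), CD3E (0.13), CD3D (-0.12) and CD2 (-0.48) were not called. The sum of all 5 was 387 untreated and 614 at 72 h. The 7 measured neutrophil markers were all 2-fold higher at 72 h, and their sum went from 356 to 19930. S100A8 and S100A9 were the highest at 72 h (13.1 and 12.6) and weigh most in that linear sum. FCGR3B, below the filter until 72 h, had no called trend (limma adjusted p = 0.0966). In a bulk sample more cells of a type and more RNA per cell cannot be told apart, and the part of these markers in the receptor levels was not tested.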

How the data were processed

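The authors deposited 1 log2 value per probe set for each of 6 Affymetrix arrays, made with RMA per the submitters' processing notes. Its version was not given in the sources used here. RMA gives every array the same distribution, which hides any shift that most transcripts share. The number of arrays limits the precision.

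Of 54675 probe sets, 41097 had 1 gene, 1801 several and 11777 none. Without controls 41091 were used, and 41037 matched the RefSeq gene table of GRCh38.p14 by Entrez identifier and took its symbol. The probe set with the highest mean stood for a gene, which was kept when its highest value reached 3.66. Trends over the 13594 genes used limma 3.58.1 in R 4.3.3 (an intensity trend in eBayes, Benjamini-Hochberg over all of them, threshold 0.05), and the code was tested on simulated data. Differences between single arrays have no test and were counted at 2-fold. For a fold, values under 3.66 were raised to it, which gives a lower bound.

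The alternatives were another normalization (cyclic loess), shifts on spiked controls, other probe set and filter rules, other baselines, a bioC covariate, hours as the time scale and each array left out. The members and the pathway and marker lists were chosen with earlier results of these data known. Named were the members, pathway genes with a called trend (at most the 4 with the largest 72 h difference per role), lists of 4 or fewer, and the 3 genes most like each kept member. Other pathway genes (CXCL8 among them) and markers were named after their values were seen, and the comparisons of 48 with 24 h and of 72 with 48 h were chosen then too, as was setting low values to the filter for the first of these, for the share of a difference after 48 h and for the pathway count. Protein sequences were not used here.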

Additional observations from a re-analysis of the deposited data

How the results depend on the processing

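The count of 5 members 2-fold higher at 72 h was the same under cyclic loess, both control shifts, the mean of all probe sets, no x_at sets, no filter, low values set to the filter, 1.5-fold, any probe set of the gene and the joint 0 and 4 h baseline. It was 4 against the 4 h array and 3 with the filter at percentile 75, which leaves fewer genes. No member was lower at 72 h in any of them. At 48 h the 3 higher members became 6 with the shift on all controls (1.0 for every gene) and 1 with low values set to the filter. That shift, taken from the median of 18 control probe sets, was positive at 4, 24, 48 and 72 h. The shift without bioC, from the mean of 14, was negative at those times (-0.36 at 48 h). At 24 h the 0 higher members became 5 with the shift on all controls and 3 at 1.5-fold, and 1 member was lower with the shift without bioC and at 1.5-fold. At 12 h there was 1 higher at 1.5-fold. At 4 h the 1 higher member became 3 with the shift on all controls, and 0 with the shift without bioC, the mean of all probe sets, the filter at percentile 75 or low values set to the filter.

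The 2 members with a rising trend became 5 with the shift on all controls, 4 with the mean of all probe sets, 4 with hours as the time scale, 4 with every probe set fitted by itself, 1 with low values set to the filter, 1 with the bioC covariate and 0 within the 4, 24, 48 and 72 h arrays. With each array left out there were 1 to 3. Of the other pathway genes 6 to 12 rose (6 without the 72 h array) and 0 to 2 fell with an array left out, IRAK3 and TNF without 4 h, and with the bioC covariate 6 rose and 1, TRAF3, fell. The slope of TLR2 turned negative with the shift without bioC (-0.0707), without the untreated array (-0.0760), without 24 h (-0.000804), with the bioC covariate (-0.0254), within the 4, 24, 48 and 72 h arrays (-0.0954) and over hours (-0.00154 per hour), without a call. It ranged from -0.0760 to 0.0868 with each array left out. Beyond the alternatives' own construction, the cause of these changes was not tested. No paired analysis was possible because each time has 1 array. The filter of 3.66 is the median of all values and not a measured background. Genes below it were left out of the main fit, and a difference in them may go unseen.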

Other observations

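TICAM2, the bridging adaptor between TLR4 and TICAM1, was read only by probe sets that the annotation also gives to the read-through gene TMED7-TICAM2, so it has no place in the counts above. It was looked up after the other values were seen. The brighter of its sets read 4.13, 5.44, 4.57, 4.94, 5.73 and 6.34 in time order, and the other went from 3.65 untreated to 4.63 at 72 h. In the brighter set all ATRA arrays lay above the untreated one, with 4 h above 12 and 24 h, as in the representative set of TLR4. The chemokine CCL3, a response gene, shares its probe set with CCL3L1 and CCL3L3, which read 4.74 untreated and 10.1 at 72 h.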
